A study of Mus musculus with 22 samples.

Results

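The MAF family was followed through mRNA of 5 of its genes, Mafa, Maf, Maff, Mafg and Mafk, in pancreatic islets of mice that carry WT MafA or are heterozygous for the S64F change in MafA. The genes were chosen by symbol from a deposited table of 57010 genes, and all 5 were found in it, each as 1 row. 4 of the 5 passed the filter on low values (at least 1 TPM in at least 5 samples), as did 16756 genes in all, and Maf did not. TPM scales the abundance per transcript length to a fixed total in each library, so levels of different genes can be set side by side.

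All 22 mice were male, and each library held the islets of 1 mouse. Their age is given as 5.5 weeks in the series design and as 5 to 6 weeks in the column names. The labels name 4 groups: C57 WT (n = 5), C57 Het (n = 6), Mixed WT (n = 5) and Mixed Het (n = 6), where Het stands for heterozygous MafA S64F. The labels do not say which strains make up Mixed. TPM adds up both Mafa alleles, so the WT and the S64F transcripts are not told apart here, and it measures mRNA, not protein.

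MAF proteins are basic leucine zipper transcription factors that bind DNA as dimers. The large members carry a transactivation domain. MAFA drives insulin transcription and maturation in beta cells, and c-MAF, the product of Maf, is known from alpha cells, where it acts on the glucagon gene, and from macrophages. The small members MAFF, MAFG and MAFK lack that domain. They repress as homodimers, and they activate or repress at antioxidant response elements as partners of NRF1 (Nfe2l1), NRF2 (Nfe2l2) and the BACH proteins.

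Serine 64 lies in the transactivation domain of MAFA, near sites whose phosphorylation governs the stability of the protein. The reference coding sequence (GENCODE M21) is shown around codon 64 because this is the codon that the S64F allele alters. Capitals mark codon 64, TCT, a serine codon, and the stretch spans coding bases 160 to 222 of the single-exon gene.
Mafa: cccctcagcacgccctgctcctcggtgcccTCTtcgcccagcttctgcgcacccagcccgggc

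The starts of the small MAF genes are shown because the mRNAs of Maff and Mafk moved closely together across mice, as described further on. Mafg went with them less closely and is shown beside them. RefSeq promoter entries (build GRCm38.p6, 250 bases before to 50 bases after a start site, written along the gene) were found for 3 of the 5 genes, with 5 entries in all, and Mafa and Maf had none. The entries printed are chr15:79347270-79347569 on the plus strand for Maff, chr5:139791286-139791585 on the plus strand for Mafk and chr11:120633498-120633797 on the minus strand for Mafg. Capitals mark matches to 5 motifs searched on both strands: TGACNNNGC (the core of the antioxidant response element), CACGTG (E-box), TGACGTCA (cAMP response element), TGANTCA (AP-1 element) and TGCTGA (the core of a MAF recognition element).
Maff: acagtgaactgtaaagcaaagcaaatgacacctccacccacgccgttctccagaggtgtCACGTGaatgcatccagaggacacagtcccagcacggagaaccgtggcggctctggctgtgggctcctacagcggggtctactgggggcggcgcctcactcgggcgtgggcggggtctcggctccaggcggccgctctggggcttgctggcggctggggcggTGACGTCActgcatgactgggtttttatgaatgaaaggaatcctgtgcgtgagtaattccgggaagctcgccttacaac
Mafk: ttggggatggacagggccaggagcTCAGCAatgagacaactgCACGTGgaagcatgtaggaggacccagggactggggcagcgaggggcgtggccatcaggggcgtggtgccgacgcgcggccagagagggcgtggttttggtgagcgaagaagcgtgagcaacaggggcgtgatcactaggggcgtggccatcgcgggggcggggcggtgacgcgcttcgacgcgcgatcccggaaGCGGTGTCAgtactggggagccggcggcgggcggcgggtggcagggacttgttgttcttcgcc
Mafg: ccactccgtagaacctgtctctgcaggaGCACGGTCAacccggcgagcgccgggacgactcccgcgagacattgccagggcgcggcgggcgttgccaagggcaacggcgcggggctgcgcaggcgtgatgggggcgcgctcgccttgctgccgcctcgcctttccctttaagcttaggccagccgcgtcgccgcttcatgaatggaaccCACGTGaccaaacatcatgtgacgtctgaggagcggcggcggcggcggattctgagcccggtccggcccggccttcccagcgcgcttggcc

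CACGTG occurred in the 3 entries printed, at -191 in Maff, -208 in Mafk and -41 in Mafg, counted from the start site. The other Maff entries lacked it, so 3 of the 5 entries searched held it. It was found in 7.15% of 32851 mouse promoter entries of the same length. The antioxidant response core occurred at -13 in Mafk and -222 in Mafg, both on the opposite strand, and at -112 in another Maff entry (chr15:79346371-79346670), against 12.4% of all entries. TGACGTCA stood at -29 in the Maff entry printed, against 1.79% of all entries, and TGCTGA at -226 in Mafk on the opposite strand, against 19.5%. TGANTCA, found in 7.81% of all entries, was in none of the 5. The third Maff entry (chr15:79348152-79348451) held none of the 5 motifs. These matches describe letters in these windows only.

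Mafa, the gene that carries the change, was lower in Het than in WT islets on both backgrounds. In C57 WT mice it stood at 362, 571, 375, 409 and 487 TPM. In the 6 C57 Het mice it ran from 93.8 through a median of 108 to 152 TPM. In Mixed WT mice it stood at 775, 534, 520, 440 and 720 TPM, and in the 6 Mixed Het mice it ran from 95.2 through a median of 160 to 199 TPM. Every Het mouse lay below every WT mouse of its background. Values of the 2 genotypes did not overlap for 21% of all genes tested in C57 and for 23.6% in Mixed.

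The mean of Mafa was 441 ± 87.6 TPM (SD, n = 5) for C57 WT against 117 ± 23.2 (n = 6) for C57 Het, and 598 ± 143 (n = 5) for Mixed WT against 152 ± 37.1 (n = 6) for Mixed Het. Differences between groups were fitted with limma on log2(TPM + 1) over all 22 samples, with Benjamini-Hochberg adjustment over 16756 genes and a threshold of 0.05. Het minus WT came to -1.91 with SE 0.18 in C57 (limma adjusted p = 1.14e-07) and to -1.98 with SE 0.18 in Mixed (limma adjusted p = 3.44e-08). By exact permutation, two-sided, p was 0.00433 on each background, the smallest value that 5 against 6 mice can give. The 2 differences were themselves compared by the interaction term, -0.07 with a 95% interval from -0.60 to 0.46 (limma adjusted p = 0.886).

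**Figure D1:**
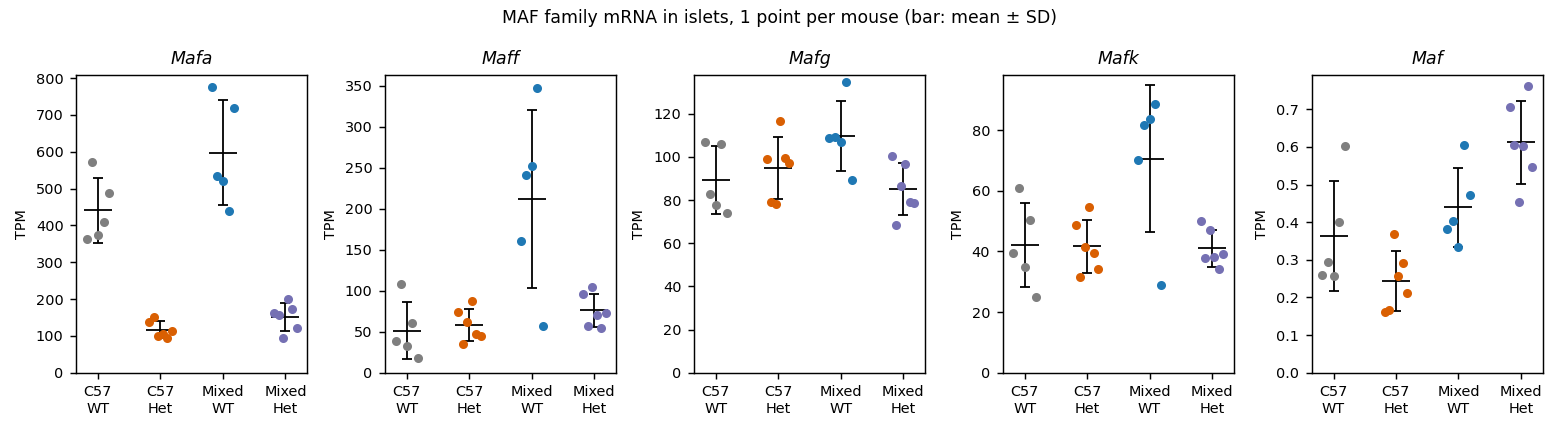
TPM of Mafa, Maff, Mafg, Mafk and Maf (y axes, each from 0 with its own scale) in the 4 groups (x axes), 1 point per mouse with the mean and SD as bars. Mafa is lower in every Het mouse, while Maff and Mafk are high in 4 of 5 Mixed WT mice and low in the other.

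Of the 3 small MAF genes, Maff varied most. This gene encodes the small MAF known for induction by stress and inflammatory signals. It stood at 38.5, 108, 32.6, 60.6 and 17.7 TPM in C57 WT and ran from 34.6 through a median of 54.3 to 87.8 TPM in C57 Het. It stood at 161, 241, 252, 347 and 57.1 TPM in Mixed WT and ran from 54.4 through a median of 71.6 to 104 TPM in Mixed Het. 4 of 5 Mixed WT mice lay above all 6 Mixed Het mice, and replicate 5 lay among them. The 2 genotypes overlapped in C57.

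Mafk, a small MAF of many tissues, followed a similar order of mice at a lower level. It stood at 39.6, 61.0, 34.9, 50.3 and 25.0 TPM in C57 WT and ran from 31.4 through a median of 40.5 to 54.7 TPM in C57 Het. It stood at 70.0, 81.8, 83.8, 88.5 and 29.0 TPM in Mixed WT and ran from 34.0 through a median of 38.5 to 50.0 TPM in Mixed Het. Again 4 of 5 Mixed WT mice lay above all Mixed Het mice, and here replicate 5 lay below all of them.

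Mafg, a partner of NRF2, varied least of the 5. Its coefficient of variation over the 22 samples was 17.4%, against 86.0% for Maff and 37.8% for Mafk. It stood at 107, 82.6, 77.6, 106 and 74.0 TPM in C57 WT and ran from 77.9 through a median of 98.0 to 116 TPM in C57 Het. It stood at 109, 109, 107, 135 and 89.2 TPM in Mixed WT and ran from 68.3 through a median of 82.8 to 100.3 TPM in Mixed Het. 4 of 5 Mixed WT mice lay above all Mixed Het mice.

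All 3 small MAF genes were lower in Het than in WT islets of the Mixed background. The differences on the log2(TPM + 1) scale were -1.29 for Maff (SE 0.40, limma adjusted p = 0.0131), -0.68 for Mafk (SE 0.24, limma adjusted p = 0.0240) and -0.37 for Mafg (SE 0.13, limma adjusted p = 0.0224). With Mafa, 4 of the 4 genes tested fell in Mixed, where 44.1% of all genes tested passed the threshold in either direction and 13.5% did so as lower in Het. Their median difference was -0.99, beside 0.10 over all genes tested. A scaling by the median of ratios moved the median of all genes by -0.11 to -0.01. It also changed the split of calls over all genes in Mixed from 69.5% higher as deposited to 48.9% higher. The differences of Maff, Mafk and Mafg were then -1.42, -0.82 and -0.50, and all 3 passed the threshold.

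These 3 falls rested in part on single mice. Without Mixed WT replicate 4, which was the highest for each of the 3 genes, none of them passed the threshold (Maff -1.05, limma adjusted p = 0.0508; Mafk -0.58, 0.0758; Mafg -0.29, 0.0815). Mafg also missed it without Mixed Het replicate 2, and Mafk without Mixed WT replicate 2 or 3 or Mixed Het replicate 5.

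In C57, Mafa alone of the 4 genes tested passed the threshold, where 38% of all genes tested did so in either direction and 11.6% as lower in Het. The split of calls over all genes in C57 went from 69.5% higher as deposited to 53.5% higher with median-of-ratios scaling. The differences of the small MAF genes were 0.36 for Maff (95% interval -0.48 to 1.20), 0.09 for Mafg (-0.17 to 0.35) and 0.02 for Mafk (-0.47 to 0.52). Those of Mafg and Mafk turned to -0.01 and -0.07 with median-of-ratios scaling. These intervals leave room for changes of either sign.

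The difference between the backgrounds was tested by the interaction of genotype and background. It was -1.65 for Maff (SE 0.57, limma adjusted p = 0.0773), -0.71 for Mafk (SE 0.34, limma adjusted p = 0.190) and -0.45 for Mafg (SE 0.18, limma adjusted p = 0.114). None of the 4 genes tested passed the threshold, which 7.36% of all genes tested did (62.8% of these with a positive term as deposited, 39.3% with median-of-ratios scaling). A difference in the genotype effect between the backgrounds was thus not established for the small MAF genes. The result hung on single mice here too. Without Mixed WT replicate 5 the interaction was -2.06 for Maff (limma adjusted p = 0.0121) and -0.995 for Mafk (limma adjusted p = 0.0187), and without C57 WT replicate 2 it was -1.97 for Maff (limma adjusted p = 0.0248).

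**Figure D2:**
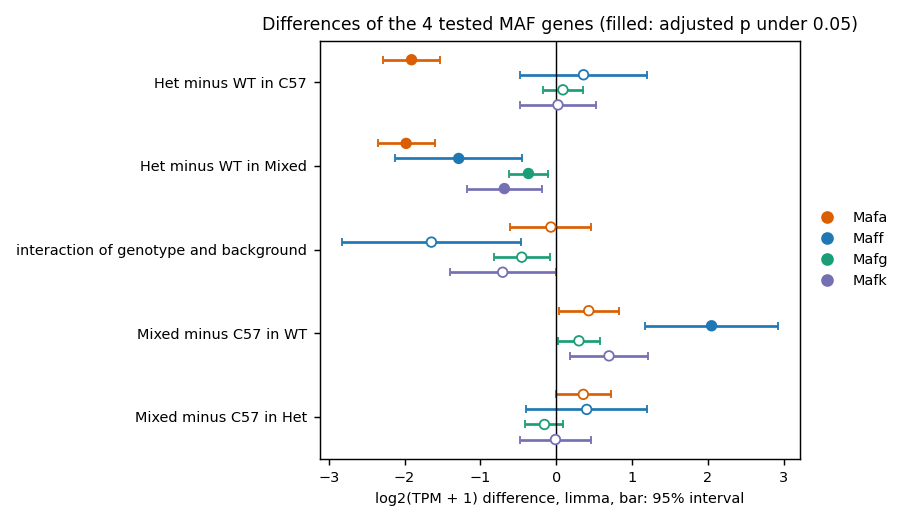
Differences on the log2(TPM + 1) scale (x axis) for Mafa, Maff, Mafg and Mafk in the 5 comparisons (y axis), as limma estimates with 95% intervals. Mafa lies at -1.91 and -1.98 in the 2 genotype comparisons, and the 3 small MAF genes lie below 0 in Mixed and around 0 in C57.

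Among WT mice, Maff differed between the backgrounds. It averaged 51.5 ± 35.1 TPM (n = 5) on C57 and 212 ± 109 TPM (n = 5) on Mixed, a log2 difference of 2.05 (SE 0.42, limma adjusted p = 0.00285). It was the 1 of 4 genes that passed, as 11.3% of all genes tested did in either direction and 6.3% as higher in Mixed. Mafk (0.70, limma adjusted p = 0.0746), Mafa (0.43, 0.153) and Mafg (0.30, 0.151) did not pass. Mafk did so without Mixed WT replicate 5 (0.98, limma adjusted p = 0.00155) and without C57 WT replicate 2 (0.84, 0.0315).

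Among Het mice, none of the 4 genes passed between the backgrounds, where 20.5% of all genes tested did (65.2% of these higher in Mixed as deposited, 48.8% with median-of-ratios scaling). Maff averaged 58.3 ± 19.9 TPM in C57 Het and 75.9 ± 20.5 in Mixed Het (n = 6 each), a log2 difference of 0.40 with a 95% interval from -0.40 to 1.20. Mafa differed by 0.36 (limma adjusted p = 0.157), and by 0.48 without Mixed Het replicate 3, which was its lowest Mixed Het mouse (limma adjusted p = 0.0380). The comparisons within WT and within Het share their samples with the genotype comparisons and are given beside them, not as further evidence.

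Maf stayed below 1 TPM in every mouse. It stood at 0.260, 0.295, 0.256, 0.400 and 0.603 TPM in C57 WT and ran from 0.160 through a median of 0.235 to 0.369 TPM in C57 Het. It stood at 0.381, 0.404, 0.335, 0.606 and 0.471 TPM in Mixed WT and ran from 0.454 through a median of 0.604 to 0.762 TPM in Mixed Het. All 6 Mixed Het mice lay above all 6 C57 Het mice. With no filter on low values, the difference between them was 0.38 on the log2(TPM + 1) scale, which understates the change of low genes (SE 0.07, limma adjusted p = 0.00111). The ratio of the 2 means was 2.52, and the two-sided exact permutation p was 0.00216, the smallest that 6 against 6 can give. In that fit 9.52% of 37378 genes passed the threshold, and 5.27% had groups that did not overlap.

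Between genotypes, Maf had a log2 difference of -0.13 in C57 (limma adjusted p = 0.252, two-sided exact permutation p = 0.117) and of 0.16 in Mixed (limma adjusted p = 0.101, two-sided exact permutation p = 0.0433). Neither passed after adjustment, nor did the interaction of 0.29 (limma adjusted p = 0.129). Markers of other cells also differed between the groups. In Het mice the summed level of 12 macrophage genes was 158 ± 22.9 TPM in C57 (range 130 to 195) and 223 ± 69.5 TPM in Mixed (range 172 to 363). That of 9 mesenchymal genes was 149 ± 16.1 (range 123 to 165) and 302 ± 147 TPM (range 132 to 561). In WT mice both sums were higher in C57 (246 ± 25.1 and 191 ± 60.7 TPM) than in Mixed (135 ± 16.8 and 168 ± 27.7 TPM). The means of Maf in WT mice had the reverse order, 0.363 TPM in C57 and 0.439 TPM in Mixed. Of 7 macrophage genes that passed the filter, 6 were called higher in Mixed than in C57 among Het mice, beside 13.3% of all genes tested. The summed level of 8 alpha cell genes was 91629 TPM in C57 Het and 90884 TPM in Mixed Het. No macrophage gene was at 0 in every library of a group, and the part of these cells in the level of Maf was not tested.

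In bulk islets, fewer cells of a type and less RNA per cell cannot be told apart. The islet markers showed the labelled tissue: 8 beta cell genes summed to between 248855 and 476690 TPM in a library. Ins1 and Ins2 made up 88% to 92.4% of this sum by group mean. It went from 427579 ± 32671 TPM in WT to 348818 ± 21587 in Het on C57, and from 431289 ± 32706 to 311218 ± 33281 on Mixed, with no test of the sum. The other 6 genes summed to 34266 ± 6774 and 33174 ± 5013 TPM on C57, and to 32576 ± 4441 and 37015 ± 5222 TPM on Mixed. Iapp made up most of that sum, with means of 31424 and 30398 TPM on C57 and 29407 and 35139 TPM on Mixed. Of the 8 genes, Ins1 alone passed in C57, as lower in Het, and 6 were lower in Mixed, beside 11.6% and 13.5% lower over all genes tested. Those 6 were Ins1, Pdx1, Nkx6-1, Slc2a2, Slc30a8 and Ucn3, which leaves Ins2 and Iapp not called there. Median-of-ratios scaling called Pdx1 and Nkx6-1 lower in C57 as well, and no longer Ins1. Slc2a2 and Slc30a8 had differences of 0.09 and 0.21 in C57, and Iapp of 0.26 in Mixed, none of which passed. The 8 alpha cell genes summed to 38473 and 91629 TPM in C57 WT and Het, and to 20486 and 90884 TPM in Mixed WT and Het. The alpha cell sums thus stood higher in Het, where Mafa held 26.5% of its WT mean on C57 and 25.4% on Mixed. Sums of 6 delta and PP cell genes also stood higher in Het (28724 and 38763 TPM on C57, 31517 and 62134 TPM on Mixed). So did those of 10 acinar genes (298 and 842 TPM on C57, 514 and 867 TPM on Mixed). The T and B cell sum was lower by mean in Het on both backgrounds. Cd79a made up most of it (11.2 of 11.5 TPM in C57 WT). The ductal sum was 1015 and 1014 TPM on C57 and 1530 and 1310 TPM on Mixed. Krt8 alone went from 849 to 382 TPM on Mixed. Of 9 ductal genes that passed the filter, 3 were called higher and 0 lower in C57, beside 26.4% and 11.6% over all genes. In Mixed 6 were higher and 2 lower, beside 30.7% and 13.5%. In Het, the sums of endothelial, mesenchymal and macrophage genes were lower by mean on C57 and higher on Mixed. Of 8 endothelial genes, 5 were called lower in C57 and 0 were called in Mixed. Of 8 mesenchymal genes that passed the filter, 1 was called lower in C57 and 5 higher in Mixed. Over all genes tested, 11.6% were lower in C57 and 30.7% higher in Mixed. The part of cell proportions in the level of Mafa was not tested.

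Mafa was the most abundant of the 5 mRNAs by its mean in every group, and its lead over the next differed between the groups. In C57 WT, Mafa exceeded Mafg, the next, by 4.93 times on the means and in all 5 mice. Mafg lay above Maff in 4 of 5 mice and Maff above Mafk in only 2 of 5, so neither of these neighbours was separated by its range. In C57 Het, Mafa exceeded Mafg by 1.23 times on the means and in 4 of 6 mice, with overlapping ranges. In Mixed WT the next gene after Mafa was Maff, 2.82 times lower on the means, and Maff stood above Mafg in 4 of 5 mice. In Mixed Het, Mafa exceeded Mafg by 1.78 times on the means and in all 6 mice, though the ranges of the group overlapped. Maf was the lowest of the 5 in every mouse.

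The ratio of Mafa to the sum of Maff, Mafg and Mafk put this in 1 value per mouse. It was 1.96, 2.27, 2.58, 1.88 and 4.17 in C57 WT and ran from 0.401 through a median of 0.591 to 1.04 in C57 Het. It was 2.28, 1.23, 1.17, 0.771 and 4.10 in Mixed WT and ran from 0.400 through a median of 0.810 to 1.03 in Mixed Het. The genotypes did not overlap in C57, and in Mixed 1 of 5 WT mice, replicate 4, fell inside the Het range. The high ratio in Mixed WT replicate 5 went with its low Maff and Mafk. Mafa made up 70.7% ± 6.15 (SD) of the summed mRNA of these 5 genes in C57 WT, 37.7% ± 7.55 in C57 Het, 60.5% ± 14.5 in Mixed WT and 42.7% ± 8.60 in Mixed Het.

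**Figure D3:**
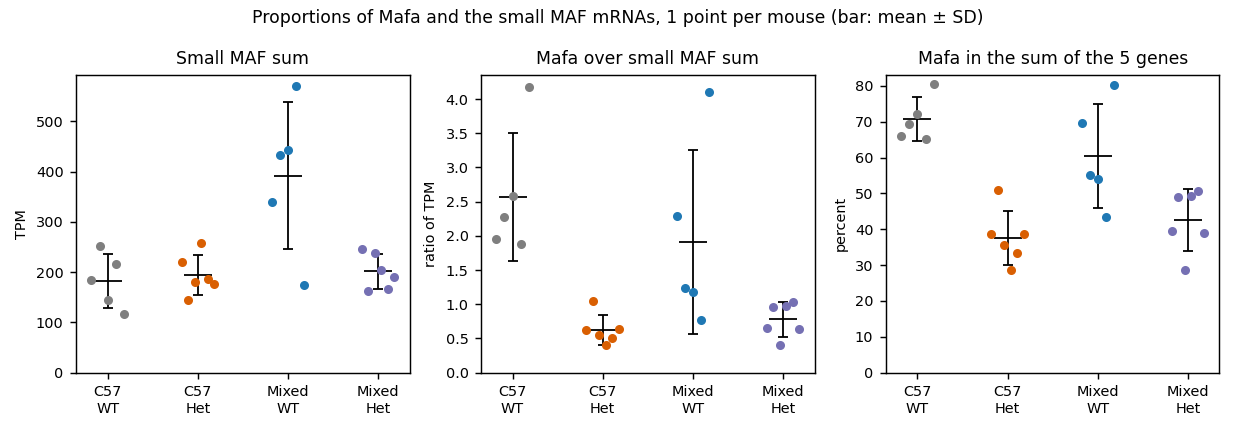
Sum of Maff, Mafg and Mafk in TPM, ratio of Mafa to that sum, and percent of Mafa in the sum of the 5 genes (y axes), 1 point per mouse in the 4 groups (x axes) with mean and SD as bars. The ratio stays between 0.400 and 1.04 in all Het mice and reaches 4.17 and 4.10 in 1 WT mouse of each background.

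Maff and Mafk rose and fell together among mice of 1 group. After each group mean was subtracted, their log2(TPM + 1) values correlated with r = 0.972 and rho = 0.955 over the 22 mice (permutation p = 1e-05 for each, the smallest that 100000 resamples can give, and 6e-05 adjusted over 6 pairs). Without the 2 mice farthest from the median of Maff, r was 0.968. Among 16755 other genes, Mafk ranked 2nd for likeness to Maff, and Maff ranked 1st for likeness to Mafk.

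Mafg went with them less closely. Its r was 0.575 with Maff and 0.594 with Mafk (permutation p adjusted over 6 pairs = 0.0233 for each), and 0.656 and 0.523 without the 2 farthest mice. Many other genes followed Mafg more closely: Maff had rank 2662 and Mafk rank 2407 for likeness to it among 16755 genes. Mafa showed r = -0.307 with Maff, -0.285 with Mafg and -0.299 with Mafk, none of which passed (permutation p adjusted over 6 pairs = 0.225 for each). All pairs share the library and its total, so values from 1 table are not independent measurements.

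**Figure D4:**
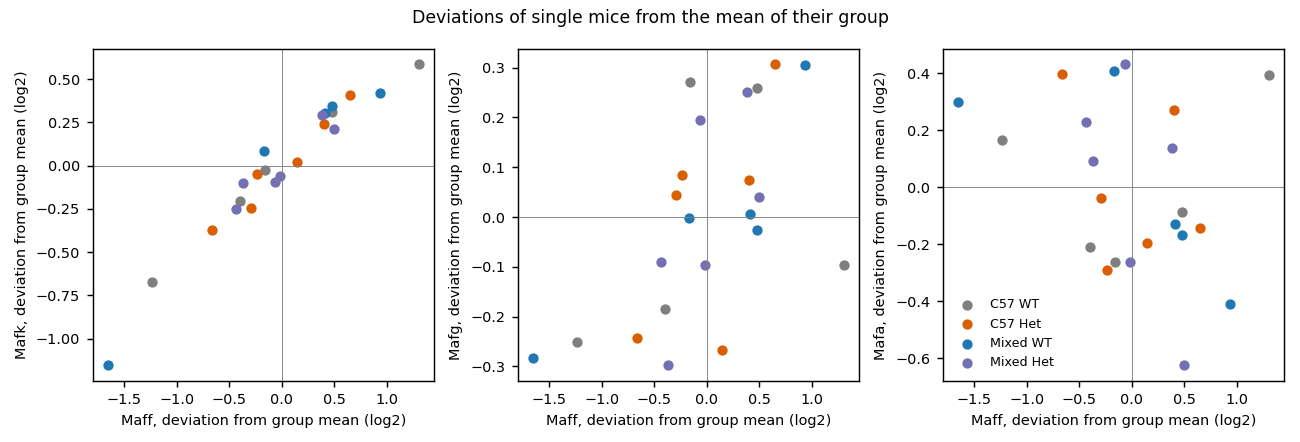
Deviation of each mouse from its group mean on the log2(TPM + 1) scale: Mafk, Mafg and Mafa (y axes) against Maff (x axis), coloured by group. Mafk follows Maff along a line (r = 0.972), Mafg follows it loosely (r = 0.575), and Mafa has no such slope (r = -0.307).

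The genes most like each member after subtraction of group means, over 22 mice, are given as a description. For Maff they were Csrnp1 (r = 0.975), Mafk, Spata2l and Spata2, and for Mafk they included Maff, Csrnp1 (0.970) and Nfkbiz (0.960). Csrnp1 encodes a nuclear protein induced by AXIN1 and Nfkbiz an inducible IkappaB protein. For Mafg they were Vamp2 (0.944), the synaptobrevin of secretory vesicles, with Appl2, Srsf5 and Bbs2. For Mafa they were Emc10 (0.832), Taf10, Mrpl36 and Ndufaf3.

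Without that subtraction, group differences entered as well. Mafa was then closest to Hspa12a (r = 0.953), Zc3h3, Gpr62 and Ttyh2. Hspa12a averaged 16.5 ± 1.51 TPM in WT and 6.31 ± 0.947 in Het mice on C57, and 21.1 ± 2.50 and 5.74 ± 1.19 on Mixed. Maff was closest to Noc4l, Tmem151a, Eid3 and Btbd8, Mafk to Csrnp1, Nfkbiz, Zscan18 and Spata2, and Mafg to Brd8, Zfp28, Prpf39 and Vamp2.

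Some MAF recognition elements contain an AP-1 site, and the genes of AP-1 and other immediate early genes respond quickly to stress. Of 12 such genes, 3 were lower in Het than in WT islets of the Mixed background and 0 were higher, beside 13.5% lower over all genes tested, with a median of -0.39 beside 0.10. They were Fosb (-1.79, limma adjusted p = 0.000654), Junb (-0.56, 0.0318) and Fosl1 (-1.60). Fosl1 reached 1 TPM in 5 mice, 4 of them Mixed WT and 1 C57 WT, so it passed the filter through the group where it was high and its call adds no support. With median-of-ratios scaling 7 of the 12 were lower, beside 22.4% over all genes. Without Mixed WT replicate 1, 2 or 3, 1 of 11 was lower, and without replicate 4, 5 of 11. Fosl1 missed the filter in these 4 fits. Without replicate 5, 7 of 12 were lower, and without C57 WT replicate 5, 5 of 12. In C57, 1 of the 12 was lower, beside 11.6% over all genes. It was Ier3 (-0.55, limma adjusted p = 0.0322), and no gene of the list was called without C57 WT replicate 1 or any 1 of C57 Het replicates 2, 4 and 6.

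Fosb and Maff were lowest in the same WT mouse of each background. Fosb stood at 2207, 3285, 3162, 2664 and 785 TPM in Mixed WT, where both were lowest in replicate 5. There Fosb was highest in replicate 2 and Maff in replicate 4. In C57 WT, Fosb stood at 1058, 1712, 859, 1479 and 325 TPM, and both were lowest in replicate 5 and highest in replicate 2. After subtraction of group means, all 12 of these genes had r above 0 with Maff (median 0.611, highest 0.903 for Fosb) and with Mafk (median 0.666, highest 0.920 for Fosb) over 22 mice. With Mafa the median was -0.107 and 3 of 12 lay above 0. No share over all genes was taken for these counts. The mitochondrially encoded share of TPM had r = -0.078 with Maff and -0.057 with Mafk after that subtraction. Its group means were 6.58 ± 2.29% and 4.12 ± 0.200% for WT and Het on C57, and 6.04 ± 2.19% and 3.24 ± 0.448% on Mixed, so it stood lower in Het on both backgrounds. Its part in the genotype differences was not tested. What set these genes high or low in single mice was not tested.

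A list of 7 genes held 6 partners of the small MAF proteins and Keap1, which binds NRF2 and not the small MAFs. Of these, 5 passed the filter, and Nfe2 and Nfe2l3 did not. In C57, 3 of the 5 were higher in Het and 0 lower, beside 26.4% higher over all genes tested, with a median of 0.38 beside 0.08. In Mixed, 3 (Keap1 among them) were higher and 1 lower, beside 30.7% and 13.5% over all genes, with a median of 0.27 beside 0.10. With median-of-ratios scaling 1 was higher and 1 lower there, beside 21.4% and 22.4% over all genes. These counts include Bach2, which reached 1 TPM in all 12 Het mice and in 0 WT mice. It passed the filter through the groups where it was high, so its call adds no support to the counts. Bach2, a repressor that binds as a dimer with small MAFs, stood at 0.435 ± 0.0693 TPM in WT and 1.84 ± 0.581 in Het mice on C57, a difference of 0.96. On Mixed it stood at 0.495 ± 0.146 and 2.45 ± 0.641 TPM, a difference of 1.19.

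Nfe2l2, the gene of NRF2, rose by 0.45 in C57 (limma adjusted p = 0.000200) and by 0.31 in Mixed (0.00397), where it missed the threshold with median-of-ratios scaling (0.18, 0.0545). Nfe2l1, the gene of NRF1, rose in C57 (0.38, limma adjusted p = 0.00945, but 0.0518 with quantile normalization) and had a difference of 0.27 in Mixed (0.0508). Keap1, which marks NRF2 for degradation, rose in Mixed (0.23, limma adjusted p = 0.00474), a call that was lost with median-of-ratios scaling. Bach1, the other BACH repressor, fell in Mixed from 17.996 ± 3.64 to 12.9 ± 1.40 TPM (-0.43, limma adjusted p = 0.00696) and had a difference of 0.15 in C57 (0.348).

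**Figure D5:**
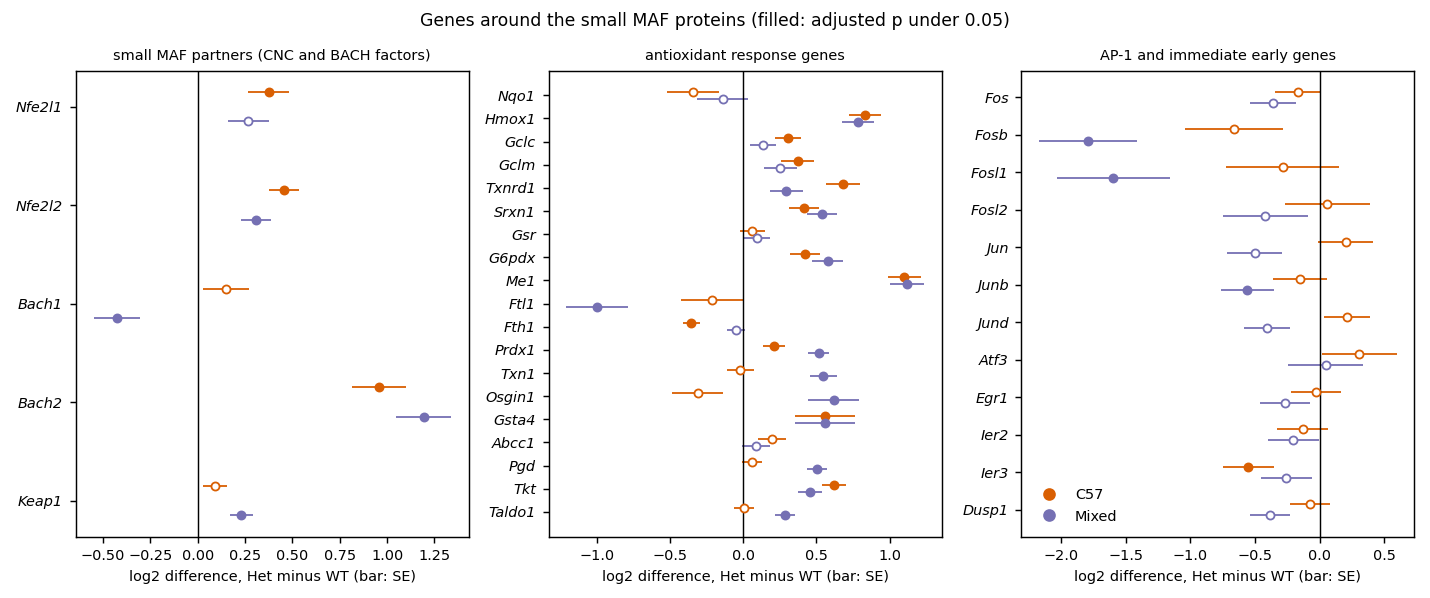
Differences between Het and WT on the log2(TPM + 1) scale (x axes) for the small MAF partners with Keap1, the antioxidant response genes and the AP-1 and immediate early genes (y axes) in C57 and in Mixed, with SE as bars and filled points for adjusted p under 0.05. Bach2, Me1 and Hmox1 lie above 0 on both backgrounds, and Bach1, Ftl1 and Fosb lie below 0 in Mixed.

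The antioxidant response genes, many of them known targets of NRF2 with small MAFs, were mostly higher in Het where they passed. Of 20 genes, 19 passed the filter and Slc7a11 did not. In C57, 10 were higher and 1, Fth1, was lower, with a median of 0.21 beside 0.08 over all genes tested, and 26.4% of all genes tested were higher. In Mixed, 12 were higher and 1 lower, with a median of 0.45 beside 0.10, against 30.7% higher over all genes. With median-of-ratios scaling the counts were 9 higher and 1 lower in each background. Over all genes that scaling gave 21% higher and 18.3% lower in C57, and 21.4% and 22.4% in Mixed. With a total taken without the most abundant genes the counts were 9 higher and 2 lower in Mixed.

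Me1, the cytosolic malic enzyme that makes NADPH, rose from 8.49 ± 1.31 to 19.3 ± 2.53 TPM in C57 (1.10, limma adjusted p = 4.34e-07) and from 10.4 ± 2.25 to 23.4 ± 1.89 TPM in Mixed (1.12, 1.54e-07). Hmox1, which degrades haem and is a classical target of BACH1, rose by 0.83 in C57 (limma adjusted p = 7.36e-06) and by 0.78 in Mixed (7.05e-06). Txnrd1 and Tkt rose by 0.68 and 0.62 in C57 (limma adjusted p = 0.000125 and 8.52e-06). Both were also called in Mixed (0.30 and 0.45, limma adjusted p = 0.0411 and 0.000138). There Txnrd1 missed the threshold with median-of-ratios scaling (0.16, limma adjusted p = 0.248). In Mixed, Osgin1 rose by 0.62 (limma adjusted p = 0.00709) and Ftl1, the ferritin light chain, fell by 0.996 (0.000657). Nqo1, often used as the marker of this response, had differences of -0.34 and -0.14 and did not pass on either background.

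Of 20 genes reported as MAFA targets in beta cells, 4 rose and 4 fell in C57 Het islets, a share near the 38% of all genes tested that passed. The median was -0.07 beside 0.08 over all genes. With median-of-ratios scaling 3 rose and 6 fell, beside 21% and 18.3% over all genes. In Mixed Het islets 3 rose and 11 fell, beside 30.7% and 13.5% over all genes, with a median of -0.49 beside 0.10. The interaction term passed for 7 of the 20, each with a more negative difference in Mixed, beside 7.36% of all genes in either direction and 2.74% in that one. Glp1r, the receptor of GLP-1, fell on both backgrounds (-0.89 in C57 and -2.24 in Mixed, limma adjusted p = 4.62e-05 and 1.07e-10). Ppp1r1a, an inhibitor of protein phosphatase 1, fell too (-0.91 and -1.17, limma adjusted p = 2.42e-07 and 3.42e-09). Pcx, pyruvate carboxylase, fell on both as well (-0.43 and -1.26, limma adjusted p = 0.00271 and 6.48e-09). Ucn3, a marker of beta cell maturity, fell in Mixed (-1.502, limma adjusted p = 1.08e-07) and had a difference of -0.32 in C57 (0.0952). In C57 it passed in some settings, quantile normalization among them (-0.42, limma adjusted p = 0.0381). In C57, Maob rose by 0.60 (limma adjusted p = 0.000274) and Ins1 fell by 0.61 (0.00589), a call lost with median-of-ratios scaling (0.0676), with quantile normalization (0.156) and with no filter (0.853). Several of these genes are also beta cell markers.

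Of 12 regulators of Mafa transcription, 11 passed the filter and Onecut1 did not. In C57, 2 rose and 3 fell, beside 26.4% and 11.6% over all genes tested, with a median of -0.17 beside 0.08. In Mixed, 3 rose and 4 fell, beside 30.7% and 13.5%, with a median of -0.14 beside 0.10. Median-of-ratios scaling changed these to 1 higher and 6 lower in C57, and 2 higher and 7 lower in Mixed. Over all genes that scaling gave 21% higher and 18.3% lower in C57, and 21.4% and 22.4% in Mixed. Pax6 fell on both backgrounds (-0.32 and -0.52, limma adjusted p = 0.00261 and 1.51e-05), as did Rfx6 and Nkx2-2 in C57 (-0.34 and -0.29, limma adjusted p = 0.0473 and 0.00857) and Pdx1 and Nkx6-1 in Mixed (-0.53 and -0.46, 0.00767 and 0.000340). The call of Rfx6 in C57 was lost in 13 of 22 fits that left out 1 mouse. Rfx6 was also lower in Mixed (-0.38, limma adjusted p = 0.0237), a call lost in 2 of 22 such fits. Pdx1 and Nkx6-1 had differences of -0.34 and -0.20 in C57, and Nkx2-2 of -0.14 in Mixed, with no call as deposited. Median-of-ratios scaling called all of these as lower (-0.43, -0.29 and -0.27, limma adjusted p = 0.0228, 0.0217 and 0.00411). Quantile normalization did so for Pdx1 and Nkx2-2 only. The interaction term passed for 0 of the 11 regulators, so falls particular to 1 background were not established. Thrb rose by 0.39 in C57 (limma adjusted p = 0.00867) and Foxa2 by 0.68 in Mixed (0.00212).

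Of 10 genes that modify the MAFA protein or take part in its turnover, 6 rose and 1 fell in C57, beside 26.4% and 11.6% over all genes tested, with a median of 0.28 beside 0.08. In Mixed 3 rose and 2 fell, beside 30.7% and 13.5%, with a median of 0.15 beside 0.10. With median-of-ratios scaling 2 rose and 3 fell there, beside 21.4% and 22.4% over all genes. Gsk3b, a kinase that phosphorylates MAFA, rose by 0.48 in C57 (limma adjusted p = 0.00110) and had a difference of 0.22 in Mixed (0.0851). Its relative Gsk3a rose by 0.35 on each background (limma adjusted p = 0.000566 and 0.000366). Kat2b rose by 0.39 in C57 (limma adjusted p = 0.000399) and Psmc4, a proteasome subunit, by 0.35 in Mixed (5.80e-05). Sumo2 rose by 0.38 in C57 and 0.31 in Mixed (limma adjusted p = 0.00232 and 0.00865), and missed the threshold in Mixed under each of the 3 other scalings.

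Macrophage genes were listed because c-MAF is known from these cells. Of 7 that passed the filter, 2 were lower in C57 Het, C1qa (-0.80, limma adjusted p = 0.000791) and C1qb (-0.48, 0.0192, not called without C57 WT replicate 1 or C57 Het replicate 2), and all 7 were higher in Mixed Het, led by Lyz2 (1.29, 0.00264), C1qc (0.88, 5.81e-05) and Cd68 (0.81, 0.00142). Over all genes tested, 11.6% were lower in C57 and 30.7% higher in Mixed. C1qa in Mixed was not called with median-of-ratios scaling (0.35, limma adjusted p = 0.134), the 2 other scalings, the samples of the contrast alone or without Mixed WT replicate 2. The interaction term passed for 5 of the 7, beside 7.36% of all genes tested. Ptprc, Cd163, Mrc1, Itgam and Fcgr1 did not pass the filter. C1qa alone made up 51.8% to 72.5% of the macrophage sum by group mean. Csf1r, the CSF1 receptor of these cells, averaged 3.75 ± 0.786 and 3.67 ± 0.405 TPM in C57 WT and Het. In Mixed WT and Het it averaged 4.16 ± 0.589 and 6.48 ± 2.03 TPM, the same order of group means as Maf. None of the other genes of this list that passed the filter had that order. C1qa was highest in C57 WT (178 ± 19.0 TPM) and lowest in Mixed WT (79.9 ± 9.95 TPM).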

How the data were processed

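The authors deposited 1 table of TPM for 57010 Ensembl genes in 22 islet libraries, per the file headers. Poly(A) RNA was sequenced as paired-end reads, per the labels' protocols. STAR 2.7.10b, MultiQC 1.7 and build mm39 are named in the submitters' processing notes, and the counting tool and annotation are not given in the sources used here. Depth cannot be read from TPM and is unknown here, so no interval from read counts was computed. It also divides by a total, so a fall of abundant transcripts raises other genes.

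Columns were matched to samples by name, and 0 value columns were left unused. Values were taken as log2(TPM + 1), and 16756 genes that reached 1 TPM in 5 or more samples were kept. limma 3.58.1 in R 4.3.3 (lmFit, eBayes with trend) fitted 4 group means over 22 samples without covariates, and the Benjamini-Hochberg threshold was 0.05. Exact and 100000-resample permutation tests used scipy 1.17.1. On simulated data for the C57 comparison, 92% of 200 changed genes among 16756 were recovered, and 3.66% of the calls were unchanged genes. The simulated noise was independent between genes, and every shift was at least 1 on the log2 scale. These shares therefore do not describe smaller differences or genes that vary together.

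The family members and gene lists were chosen with earlier results of these data known, so list counts are descriptions. Named list genes are up to 4 per list and background with the largest absolute difference among those that passed, and likeness was ranked by Pearson r, passing over provisional symbols. Nqo1, Fth1, Iapp, Slc2a2, Slc30a8, Csf1r and values of named genes on the other background were given after their values were seen. Some genes that the rule takes are not reported here. Alternatives were a pseudocount of 0.1, no filter, a filter on the mean (5 TPM), scaling by median of ratios, by quantiles or by a total that leaves out 13 genes reaching 1% of a sample, the samples of a contrast alone, eBayes without trend, arrayWeights, and leaving out each mouse.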

Additional observations from a re-analysis of the deposited data

Results flagged for a closer look

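In the 6 C57 Het mice, the ratio of Mafa to the sum of Maff, Mafg and Mafk had 1 value far from the others, 1.044 in replicate 2. It had 152 TPM of Mafa, the highest of its group, with 34.6 TPM of Maff and 31.4 TPM of Mafk, the lowest of its group. Of 36 groups of values looked at in this way, chance alone would set apart about 1 in 20.

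For 12 of 43 named genes the Het minus WT difference itself differed between the backgrounds by the limma interaction term (Mixed minus C57, log2 scale, adjusted p under 0.05), beside 7.36% of all genes tested. List genes were named for large differences on 1 or both backgrounds, which favours genes with such a term. Among reported MAFA targets it was -1.35 for Glp1r, -1.18 for Ucn3, -0.83 for Pcx and -0.62 for Maob. Among macrophage genes it was 1.28 for C1qa, 1.23 for C1qb, 1.06 for C1qc and 1.18 for Cd68. It was 0.93 for Osgin1 in the antioxidant list, -0.45 for Kat2b and 0.34 for Psmc4 in the turnover list, and -0.58 for Bach1 (limma adjusted p = 0.0438) among the small MAF partners. The term for Bach1 missed the threshold in 15 of 22 fits that left out 1 mouse each, and that for Osgin1 in 1 of 22.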

How the results depend on the processing

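No paired analysis was possible because replicate numbers only follow accession order and no label ties mice of different groups. Mafa fell with its call under all alternatives, by values from -2.13 to -1.88 over both backgrounds in the 9 settings other than single mice left out. The number of MAF genes called in Mixed ran from 1 to 4 when 1 mouse was left out, with 1 without Mixed WT replicate 4. For the interaction it ran from 0 to 2 over such fits, and was 2 with arrayWeights (Maff and Mafg) and 1 with median-of-ratios scaling (Mafg). It ran from 1 to 2 for Mixed minus C57 in WT and from 0 to 1 in Het. In Het it was 1 with arrayWeights (Mafg) and 1 with no filter on low values (Maf). Mafk in Mixed was not called with no filter (limma adjusted p = 0.0546).

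Some differences with no call changed sign. For Het minus WT in C57, Mafg was -0.0056, -0.0304 and -0.0243 and Mafk -0.0698, -0.108 and -0.0888 with median-of-ratios scaling, quantile normalization and the total without the most abundant genes. Mafk was -0.0619 with arrayWeights and ran from -0.145 to 0.169 with 1 mouse left out. Keap1 was -0.0015, -0.0255 and -0.0200 and Psmc4 -0.0836, -0.0905 and -0.103 under the same 3 scalings. With 1 mouse left out, the interaction of Mafa ran from -0.174 to 0.0541, Mafk for Mixed minus C57 in Het from -0.0852 to 0.0707, Psmc4 in C57 from -0.0229 to 0.0261 and Maob in Mixed from -0.0978 to 0.0096.

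Among the lists, the partners called in Mixed were 2 with median-of-ratios scaling, and the regulators called in C57 were 3 with the samples of the contrast alone. The AP-1 genes called in C57 were 0 with no filter and 0 to 1 with 1 mouse left out. In Mixed they were 7 with arrayWeights and with each of the 3 scalings, and 1 to 7 with 1 mouse left out, where Fosl1 missed the filter in some fits. The macrophage genes called in C57 were 1 with arrayWeights, 4 with no filter and 1 to 3 with 1 mouse left out. The cause of these shifts was not tested. Depth is unknown, so what it limits was not assessed.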
